A study of Mus musculus with 4 samples.

Results

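Serpins are a family of protease inhibitors that share one fold. An inhibitory serpin offers an exposed reactive centre loop as bait, is cut there by its target protease, and then snaps into a new shape that traps and disables the enzyme, while a few members have lost inhibition and act as hormone carriers, chaperones or signalling proteins. The family is divided into clades by sequence. Clade A holds the secreted antitrypsin-like proteins, clade B the mostly intracellular ovalbumin-like proteins, and clades C to I the secreted regulators of coagulation, fibrinolysis, complement, matrix and the nervous system, together with the collagen chaperone Hsp47. In the mammary gland the best known member is Serpinb5, or maspin, a product of myoepithelial cells. The 47 genes described here are those with a symbol of the form Serpin, a clade letter from a to i, a number and an optional letter, that had a probe set annotated to them alone, out of 19938 genes measured. Each had 1 such probe set.

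The arrays held RNA of female mouse terminal end buds, the growing tips of the pubertal mammary ducts, on the strain background that the labels write as C57/BL6. The 2 control pools came from mice with the genotype Ovol2flox/+, with or without K14-Cre according to the protocol and without it according to the sample characteristics. The 2 knockout (KO) pools came from Ovol2flox/-;K14-Cre mice. Mice of both groups therefore carried a floxed allele of Ovol2, a zinc finger repressor gene of epithelial cells, and only the KO mice also carried a null allele, in all their cells. The keratin 14 promoter that drives Cre works in basal mammary cells and in other stratified epithelia. Which cells of the end buds lost Ovol2, basal or luminal, cannot be read from these bulk arrays. Each control array pooled 2 mice and each KO array 3 mice, so pool size cannot be told apart from genotype. The labels give an age of 4.5 weeks and the series text 24 to 25 days. The pools are called biological replicates in the titles.

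The array medians lay between 252 and 272 on the deposited linear signal scale. Ovol2 itself read 8.05 and 8.31 in control pools and 7.85 and 7.73 in KO pools, a log2 difference of -0.39 that did not pass (limma, adjusted p = 0.17). The luminal markers Krt8, Krt18, Krt19, Epcam and Elf5 and the basal markers Krt5, Krt14, Trp63 and Acta2 all passed the filter on dim genes. Of all 11963 genes tested, 753 rose and 532 fell in KO pools, at an adjusted p under 0.05.

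Of the 47 serpin genes, 12 passed the filter on dim genes, a log2 value of 7.97 averaged over the 4 arrays, and 35 lay under it and were not tested. Of the 12, 3 rose, 2 fell and 7 did not pass the threshold. Over all tested genes 10.7% were called, 6.29% as higher and 4.45% as lower. The secreted or matrix-side members Serping1 and Serpinf1 rose and the intracellular clade B members Serpinb10 and Serpinb11 fell, while Serpinb6b, also of clade B, rose. The median log2 difference was 0.039 over the 12 tested serpins and -0.022 over all tested genes. The groups did not overlap for 9 of the 12 serpins, with the KO arrays above for 5 and below for 4, and for 56.3% of all tested genes, above for 26.4% and below for 29.9%. P-values here rest only on the spread between these 4 pools, with the variance of each gene moderated by that of all tested genes.

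**Figure D1:**
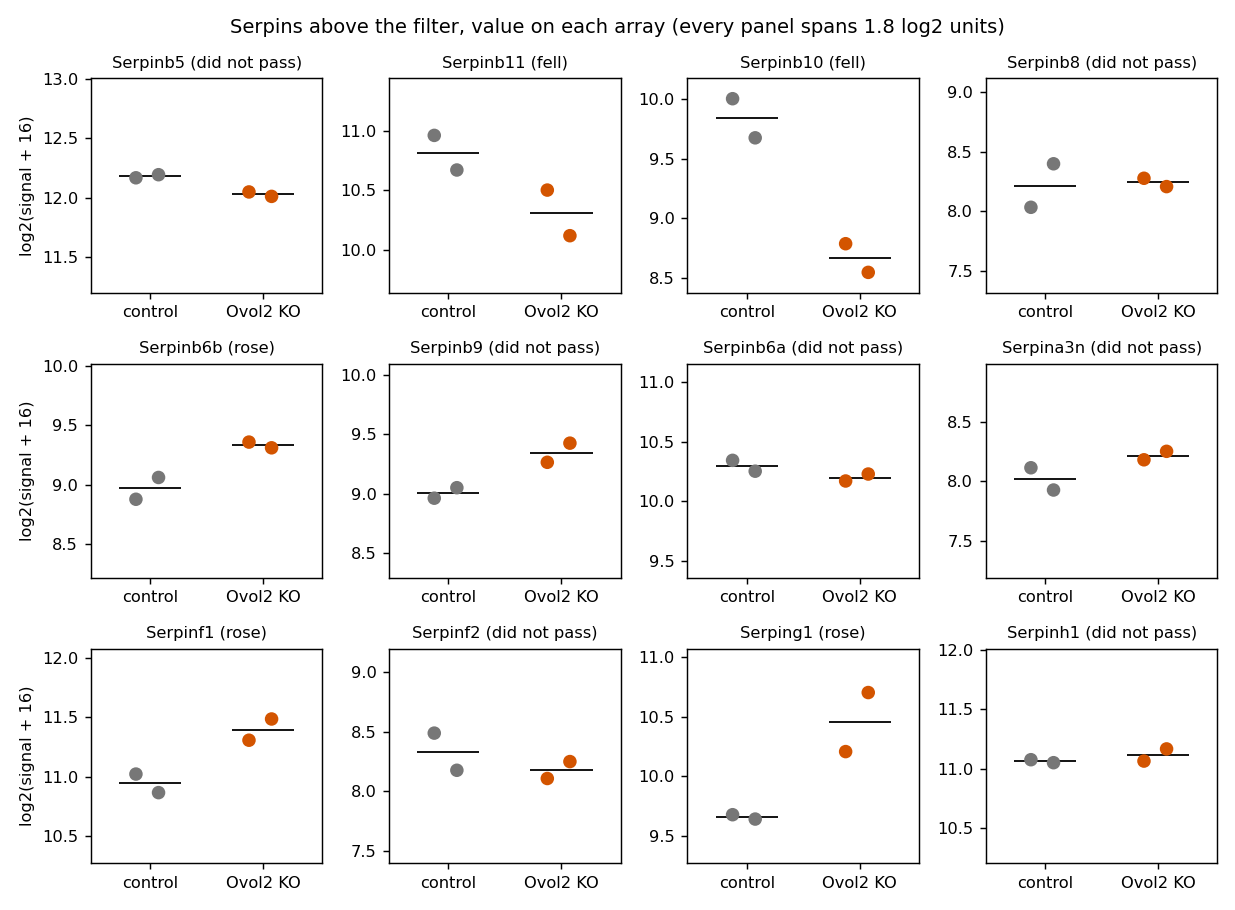
Quantile-normalized log2(signal + 16) of the 12 serpins above the filter on each of the 2 control arrays (grey) and 2 Ovol2 KO arrays (orange), with the group means as lines, in panels that each span 1.8 log2 units. Serpinb10, at 10.00 and 9.68 in the controls, read 8.79 and 8.55 in KO pools.

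The sequences just upstream of 6 of these genes are shown because 4 of them belong to the clade B cluster on chromosome 1, where both members that fell lie, and the other 2 belong to members that rose. Each is the 250 bases before the RefSeq gene start on GRCm38.p6, written 5′ to 3′ on the strand of the gene. The Serpinb5 window is chr1:106860925-106861174 on the plus strand, that of Serpinb11 is chr1:107362064-107362313 on the plus strand, that of Serpinb10 is chr1:107528753-107529002 on the plus strand and that of Serpinb8 is chr1:107589756-107590005 on the plus strand. The Serpinb6b window is chr13:32965011-32965260 on the plus strand and the Serpinf1 window is chr11:75422624-75422873 on the minus strand. Capitals mark a match to any of 4 motifs, searched on both strands: CAGGTG, the E-box form that Zeb and Snail repressors bind, CCGTTA, a core sequence bound by Ovol proteins, TGANTCA, a pattern that takes in the AP-1 element and looser variants of it, and an interferon element made of GAAA repeated after any 2 bases.
Serpinb5: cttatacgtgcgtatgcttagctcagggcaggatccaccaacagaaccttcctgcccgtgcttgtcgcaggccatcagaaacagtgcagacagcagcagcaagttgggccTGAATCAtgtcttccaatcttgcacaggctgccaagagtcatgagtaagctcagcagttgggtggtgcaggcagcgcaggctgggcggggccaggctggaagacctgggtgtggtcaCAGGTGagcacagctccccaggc
Serpinb11: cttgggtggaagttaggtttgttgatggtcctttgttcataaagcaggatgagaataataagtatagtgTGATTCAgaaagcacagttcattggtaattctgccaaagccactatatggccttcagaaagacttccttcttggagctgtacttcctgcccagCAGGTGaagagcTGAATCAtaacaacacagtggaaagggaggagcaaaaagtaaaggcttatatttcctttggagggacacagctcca
Serpinb10: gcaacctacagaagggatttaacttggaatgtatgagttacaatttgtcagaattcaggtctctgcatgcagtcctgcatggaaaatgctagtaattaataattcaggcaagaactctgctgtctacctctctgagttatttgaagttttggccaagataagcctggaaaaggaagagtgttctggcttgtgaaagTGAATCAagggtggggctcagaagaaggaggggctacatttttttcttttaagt
Serpinb8: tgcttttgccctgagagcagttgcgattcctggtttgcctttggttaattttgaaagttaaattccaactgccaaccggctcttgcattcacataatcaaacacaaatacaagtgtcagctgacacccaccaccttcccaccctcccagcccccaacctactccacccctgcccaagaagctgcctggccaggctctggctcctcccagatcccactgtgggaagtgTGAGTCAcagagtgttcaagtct
Serpinb6b: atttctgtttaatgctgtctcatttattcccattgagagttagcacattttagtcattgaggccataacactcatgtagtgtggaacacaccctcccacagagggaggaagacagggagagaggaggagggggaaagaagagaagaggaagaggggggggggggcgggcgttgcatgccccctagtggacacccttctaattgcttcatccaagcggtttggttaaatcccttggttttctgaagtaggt
Serpinf1: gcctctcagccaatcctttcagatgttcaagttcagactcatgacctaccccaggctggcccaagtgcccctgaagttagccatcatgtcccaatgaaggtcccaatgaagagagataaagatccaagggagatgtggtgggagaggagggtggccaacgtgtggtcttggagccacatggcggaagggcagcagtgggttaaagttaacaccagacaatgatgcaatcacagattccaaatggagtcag

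TGANTCA was found in all 4 windows from chromosome 1 and in neither of the other 2. In the RefSeq table, 41 of the 47 serpins had at least 1 window, and 49 windows were searched. Serping1 was among the genes without one. Over the clade B genes on chromosome 1, 8 of 12 windows held TGANTCA, from 7 of 10 genes, while 0 of 16 windows of the clade B genes on chromosome 13 did. Of all 32851 windows of this length in the table, 6.75% held it. The AP-1 element itself, TGAGTCA or TGACTCA, was found in 2 of those 12 windows, at Serpinb7 and Serpinb8, against 4.46% of all windows. The matches shown for Serpinb5, Serpinb11 and Serpinb10 are TGAATCA or TGATTCA and are not that element. Genes of one cluster arose by duplication and some windows of one gene overlap, so these windows are not independent. CAGGTG was found in 14 of the 49 serpin windows, against 17.2% of all windows, and among the 12 windows of tested serpins in 3, those of Serpinb11, Serpinb5 and Serpinb6a. CCGTTA was found in 0 of the 49, against 2.18% of all windows. The interferon element was found in 2 of the 49, at Serpinb9 and Serpinb6a, against 2.98%. These counts were read after the calls were known, and a match describes letters only.

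Serpinb10, or bomapin, is an intracellular clade B serpin first found in bone marrow cells. Its log2 values were 10.00 and 9.68 in control pools and 8.79 and 8.55 in KO pools, and the groups did not overlap. It was 2.26-fold lower in KO pools (log2 difference -1.17 ± 0.13, 95% CI -1.46 to -0.89, limma, adjusted p = 0.000867), where values after ± here and below are standard errors with n = 2 arrays per group. Its deposited linear signals were 984 and 804 in control pools and 436 and 365 in KO pools. It was the member of the 47 with the largest difference in size, and the only one that remained past the threshold in a fit without a mean-variance trend (adjusted p = 0.0428), in which 1.57% of all tested genes were called. Its adjusted p under 15 alternative settings lay between 6.81e-30 and 0.0428.

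Serpinb11, known as epipin, lies in the same cluster. It read 10.96 and 10.67 in control pools and 10.50 and 10.12 in KO pools, and the groups did not overlap. It fell by 0.51 ± 0.12 on the log2 scale (limma, adjusted p = 0.0311). The call was lost without control replicate 1 (log2 difference -0.36, adjusted p = 0.157), with a robust prior, with the replicate numbers crossed as a block and without the trend, in a range of adjusted p from 3.7e-15 to 0.243. The difference was -0.31 without KO replicate 2 and -0.70 without KO replicate 1.

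Serpinb5, or maspin, is expressed by myoepithelial cells and named as a tumour suppressor of the breast. It read 12.17 and 12.19 in control pools and 12.05 and 12.01 in KO pools. The KO arrays both lay below the controls, by a log2 difference of -0.15 ± 0.048 (95% CI -0.26 to -0.044) that did not pass (limma, adjusted p = 0.0758, between 0.0198 and 0.292 under the alternatives). In the same arrays the basal genes Trp63 and Acta2 fell by 0.36 ± 0.064 and rose by 0.21 ± 0.053 on the log2 scale, Krt14 differed by 0.43 ± 0.15 and Krt5 by -0.021 ± 0.11. Krt14 did not pass, but it passed in the deposited values, with median centring, with the replicate block and without KO replicate 1. Its difference was 0.72 without KO replicate 1 and 0.14 without KO replicate 2. The sign of Krt5 turned without control replicate 2 and without KO replicate 1, and its difference was -0.22 without KO replicate 2. The calls of Trp63 and Acta2 were lost without control replicate 1 and that of Acta2 without KO replicate 2. The Acta2 call was also lost with median centring and without the trend. The part of basal cell number in the Serpinb5 value was not tested. In bulk samples fewer cells of a type and less RNA per cell cannot be told apart.

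Serpinb8, an intracellular inhibitor of furin, closes the cluster next to Serpinb10. It read 8.03 and 8.40 in control pools and 8.28 and 8.21 in KO pools, which lay within the control range. Its log2 difference was 0.026 ± 0.16 (95% CI -0.33 to 0.38). The sign turned without control replicate 1 (-0.16) and without KO replicate 1 (-0.0089).

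In gene order on chromosome 1 the 11 clade B members measured run from Serpinb5 through Serpinb12, Serpinb13, Serpinb3a, Serpinb3d, Serpinb3c, Serpinb11, Serpinb7, Serpinb2 and Serpinb10 to Serpinb8. Of these 4 were tested, 0 rose and 2 fell, with a median log2 difference of -0.33. At an unadjusted limma p under 0.05, 0 of the 4 were higher and 3 lower, against 13.1% and 12.4% of all tested genes. The other 7 lay under the filter, with unfiltered log2 differences from -0.18 for Serpinb13 to 0.084 for Serpinb3a. Serpinb7 (-0.12) and Serpinb2, the plasminogen activator inhibitor type 2 gene (-0.081), lie between the 2 members that fell, and both had overlapping groups. The 3 Serpinb3 genes are near copies of each other and their probe sets may share signal.

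**Figure D2:**
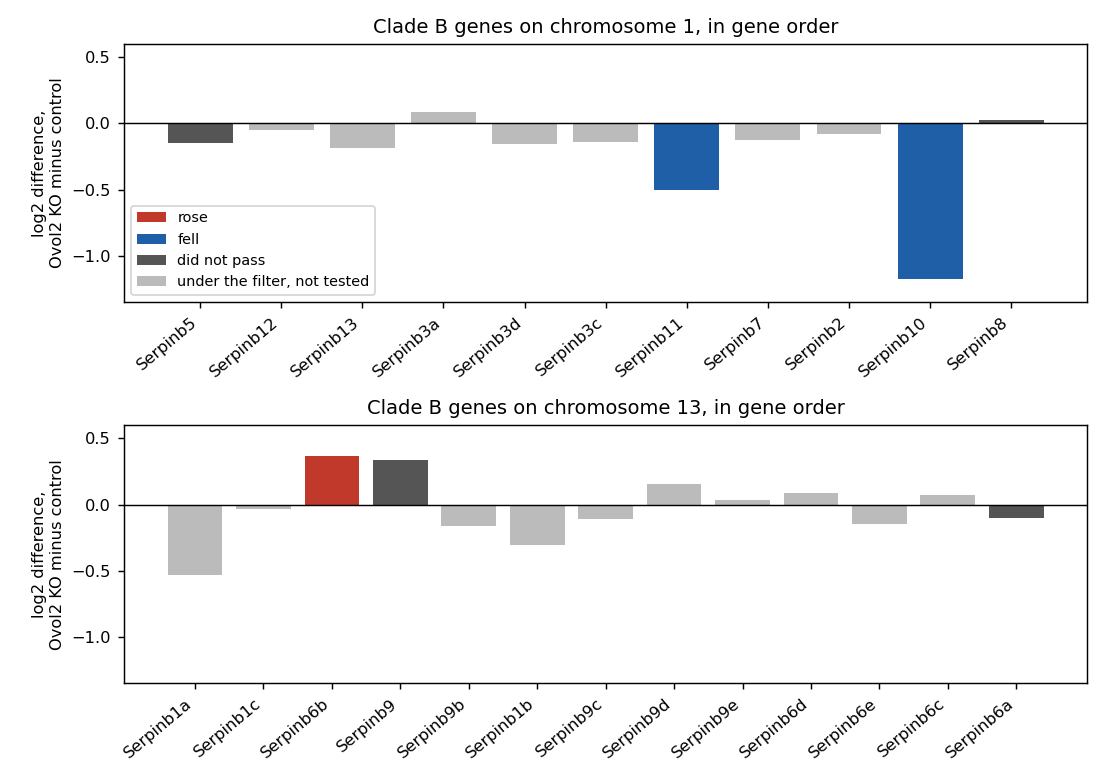
Log2 differences, KO minus control, of the clade B genes on chromosome 1 (top) and chromosome 13 (bottom) in RefSeq gene order, coloured by call, with grey bars for genes under the filter. Serpinb11 and Serpinb10 fell on chromosome 1, and the adjacent Serpinb6b and Serpinb9 on chromosome 13 had log2 differences of 0.36 and 0.34.

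Of the 13 clade B genes measured on chromosome 13, 3 were tested: Serpinb6b, Serpinb9 and Serpinb6a. Serpinb6b, an inhibitor of granzyme A, read 8.88 and 9.06 in control pools and 9.36 and 9.31 in KO pools, without overlap. It rose by 0.36 ± 0.099 on the log2 scale (limma, adjusted p = 0.0443, in a range from 0.0123 to 0.335). The call was lost without control replicate 1 (log2 difference 0.27), with median centring, with no filter and without the trend.

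Serpinb9, the granzyme B inhibitor that protects cytotoxic cells from their own enzyme, is the next gene measured after Serpinb6b. It read 8.96 and 9.05 in control pools and 9.27 and 9.43 in KO pools, again without overlap. Its log2 difference of 0.34 ± 0.097 (95% CI 0.12 to 0.56) did not pass (adjusted p = 0.0559), and it passed in 5 of 15 alternatives, in a range from 0.00477 to 0.312. One of these left out KO replicate 1 (log2 difference 0.42). Serpinb6a, an intracellular inhibitor of cathepsin G, read 10.34 and 10.25 in control pools and 10.17 and 10.23 in KO pools. Its log2 difference was -0.099 ± 0.067 (95% CI -0.25 to 0.052).

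The close relatives of these genes were dim, and near-identical copies may share probes, so values within the Serpinb6, Serpinb9 and Serpinb1 groups are uncertain. Serpinb6c, Serpinb6d and Serpinb6e had unfiltered log2 differences of 0.076, 0.091 and -0.14. Serpinb9b, Serpinb9c, Serpinb9d and Serpinb9e had -0.16, -0.11, 0.15 and 0.038. A further 3 probe sets were annotated to Serpinb9d, Serpinb9e, Serpinb9f and Serpinb9g together, and differed by -0.11 to 0.019. Serpinb1a, an inhibitor of neutrophil proteases, had the largest difference among the untested serpins, -0.53, from 6.46 and 6.56 in control pools to 6.10 and 5.86 in KO pools. Its copies Serpinb1b and Serpinb1c differed by -0.30 and -0.036. With an offset of 1 or 64 in place of 16, the difference of Serpinb1a was -0.66 or -0.32.

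Serping1 encodes the C1 inhibitor, which controls the complement proteases C1r and C1s as well as plasma kallikrein. It read 9.68 and 9.64 in control pools and 10.21 and 10.70 in KO pools, so the controls lay close together and the KO arrays apart. It rose 1.74-fold (log2 difference 0.80 ± 0.13, limma, adjusted p = 0.00589). The difference was 0.55 without KO replicate 2 and 1.04 without KO replicate 1. The call was lost without the trend and with a robust prior, and its adjusted p ran from 3.17e-27 to 0.0962.

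Among its target genes, C1s1, the gene of the C1s protease, read 10.48 and 10.52 in control pools and 10.02 and 9.97 in KO pools and fell by 0.50 ± 0.064 on the log2 scale (limma, adjusted p = 0.00182). C1ra, the gene of its partner C1r, differed by 0.074 ± 0.092 and did not pass. Both mouse genes have close copies whose signal may be shared. Masp1, a related protease gene of the lectin pathway, was named with its values known, as was C1ra, and lay under the filter at 7.11 and 7.41 in control pools and 7.90 and 8.45 in KO pools.

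Serpinf1 encodes pigment epithelium-derived factor (PEDF), a secreted serpin without inhibitory activity that restrains blood vessel growth. It read 11.02 and 10.87 in control pools and 11.31 and 11.48 in KO pools, without overlap. It rose 1.37-fold (log2 difference 0.45 ± 0.075, limma, adjusted p = 0.0061). It stayed past the threshold in 14 of 15 alternatives and missed it without the trend (adjusted p = 0.0756, in a range from 1.12e-13 to 0.0756). Its neighbour Serpinf2, the gene of the plasmin inhibitor alpha2-antiplasmin, read 8.49 and 8.18 in control pools and 8.11 and 8.25 in KO pools, which overlapped. Its log2 difference was -0.15 ± 0.15 (95% CI -0.50 to 0.19), and it was 0.0020 without control replicate 1.

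Fibroblast markers moved with Serping1 and Serpinf1. All 6 of 6 listed markers rose, among them Lum by 1.94 ± 0.092, Pdgfra by 1.62 ± 0.12, Pdgfrb by 1.25 ± 0.15 and Col1a1 by 1.07 ± 0.12 on the log2 scale. Their summed deposited signal was 6512 and 6886 in control pools and 14020 and 17017 in KO pools, and the lowest single signal of the list was 302. The endothelial markers Emcn, Kdr and Cdh5 rose as well, by 1.02, 0.88 and 0.72, while Pecam1 differed by 0.51 and did not pass; the call of Kdr was lost without control replicate 1, and Pecam1 passed without control replicate 2, KO replicate 1 or KO replicate 2. The summed endothelial signal was 1895 and 2432 in control pools and 3404 and 4276 in KO pools. Of the adipocyte markers, Fabp4 rose by 0.58 ± 0.091, Plin1 differed by -0.084 ± 0.15 and did not pass, and Adipoq, Lep and Cidec lay under the filter. The summed adipocyte signal was 1826 and 1895 in control pools and 2319 and 2680 in KO pools. Fabp4 alone gave 1152 and 1301 of this in control pools and 1716 and 2010 in KO pools, so the higher sum reflects that gene. The part of fibroblasts, vessels or fat cells in the Serping1 and Serpinf1 values was not tested.

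Of the tested markers, 2 of 3 genes on the lymphocyte list fell beside Serpinb10 and Serpinb11. On the epidermal list 1 of 3 fell, Krt6a, and whether its signal came from epidermis was not tested. The lymphocyte genes Cd79b and Ccr7 fell, with log2 differences of -1.91 ± 0.22 and -0.84 ± 0.12. Cd3e differed by -0.25 ± 0.16 and did not pass. Cd79a lay under the filter, at 7.65 and 7.38 in control pools and 5.70 and 5.77 in KO pools, an untested difference of -1.78. The summed signal of the 4 lymphocyte markers on the array was 1875 and 1430 in control pools and 746 and 770 in KO pools. The stress keratin gene Krt6a fell by 0.93 ± 0.16, while Krt10 and Krt1 differed by -0.16 and -0.12 and did not pass. The 4 markers of the epidermal list on the array summed to 2318 and 2420 in control pools and 1831 and 1526 in KO pools. Krt6a alone gave 1248 and 1408 of this in control pools and 888 and 558 in KO pools, so the lower sum mostly reflects that gene. No marker of either list was at 0, and their lowest single signals were 36.4 for Cd79a and 73.3 for Lor. Their part in the decrease of both serpins was not tested. On the macrophage list Lyz2 fell by 0.96 ± 0.24 and Cd14 rose by 0.34 ± 0.064, and Csf1r (0.24 ± 0.14) and Cd68 (-0.022 ± 0.17) did not pass. Whether the signals of these genes came from macrophages was not tested. The call of Lyz2 was lost without control replicate 2 and that of Cd14 without control replicate 1.

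Serpinh1, or Hsp47, is the collagen chaperone of the endoplasmic reticulum and has no inhibitory activity. It read 11.07 and 11.05 in control pools and 11.06 and 11.17 in KO pools, and the groups overlapped. Its log2 difference was 0.052 ± 0.058 (95% CI -0.078 to 0.18, adjusted p = 0.623), so an increase of more than 0.18 lay outside the interval. Of 8 tested genes of collagens, its clients, 4 rose and 0 fell, against 6.29% and 4.45% of all tested genes. The other 4 did not pass. Col1a2 rose by 1.19 ± 0.11, Col1a1 by 1.07 ± 0.12, Col3a1 by 1.05 ± 0.099 and Col5a2 by 0.87 ± 0.13 on the log2 scale. Those that did not pass, named after their values were seen, were Col5a1 (0.43 ± 0.14), the basement membrane genes Col4a1 (0.14 ± 0.057) and Col4a2 (0.15 ± 0.066), and Col2a1 (-0.047 ± 0.12), and 0 collagen genes were lower at an unadjusted limma p under 0.05.

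Against 6.29% rising and 4.45% falling over all tested genes, 6 of 24 tested genes of Hsp47 clients and collagen folding rose and 1 fell. On this list 17 did not pass, and the median was 0.15. The others past the threshold, named after their values were seen, were Kdelr3, a retrieval receptor of the endoplasmic reticulum (0.47 ± 0.11), and Fkbp14, a prolyl isomerase gene (0.46 ± 0.098), which rose, and Plod2, a lysyl hydroxylase gene, which fell by 0.46 ± 0.11. These 3 calls were lost without control replicate 1. The difference between Serpinh1 and the collagen genes that rose was not tested.

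Serpina3n, an acute-phase inhibitor of granzyme B and elastase, was the only clade A gene above the filter. It read 8.11 and 7.93 in control pools and 8.18 and 8.25 in KO pools, so the KO arrays lay narrowly above. Its log2 difference was 0.20 ± 0.15 (95% CI -0.13 to 0.53, limma, adjusted p = 0.455). Its relatives in the Serpina3 cluster are similar enough that probes may be shared.

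The other 13 clade A genes lay under the filter, with unfiltered log2 differences from -0.36 for Serpina16 to 0.083 for Serpina6, the gene of the cortisol-binding globulin. They include Serpina10, an inhibitor of factor Xa, the thyroxine carrier gene Serpina7, Serpina5, the protein C inhibitor gene, and the antitrypsin genes Serpina1c and Serpina1d. The copies Serpina3a and Serpina3b of the Serpina3 cluster differed by -0.12 and -0.17. Many of these are liver genes. Of the 4 liver markers listed, only Apoa1 passed the filter, with a log2 difference of -0.20 ± 0.14.

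The antitrypsin copies Serpina1a to Serpina1e are nearly identical, and 2 probe sets were annotated to all 5 of them, outside the 47 genes. The brighter one read 8.38 and 8.47 in control pools and 7.85 and 7.91 in KO pools. Its log2 difference was -0.55 ± 0.14, which did not pass in a fit over all 18787 probe sets above the same level, added after seeing the data (limma, adjusted p = 0.0767, where 4.2% of probe sets were called and 1.43% called lower). The dimmer one read 7.76 and 7.77 in control pools and 7.32 and 7.34 in KO pools, a difference of -0.43. In both probe sets the KO arrays lay below the controls. In that fit Serpinb10 (adjusted p = 0.0115), Serpinf1 (0.0313) and Serping1 (0.0335) remained past the threshold, while Serpinb11 (0.0904) and Serpinb6b (0.0974) did not.

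**Figure D3:**
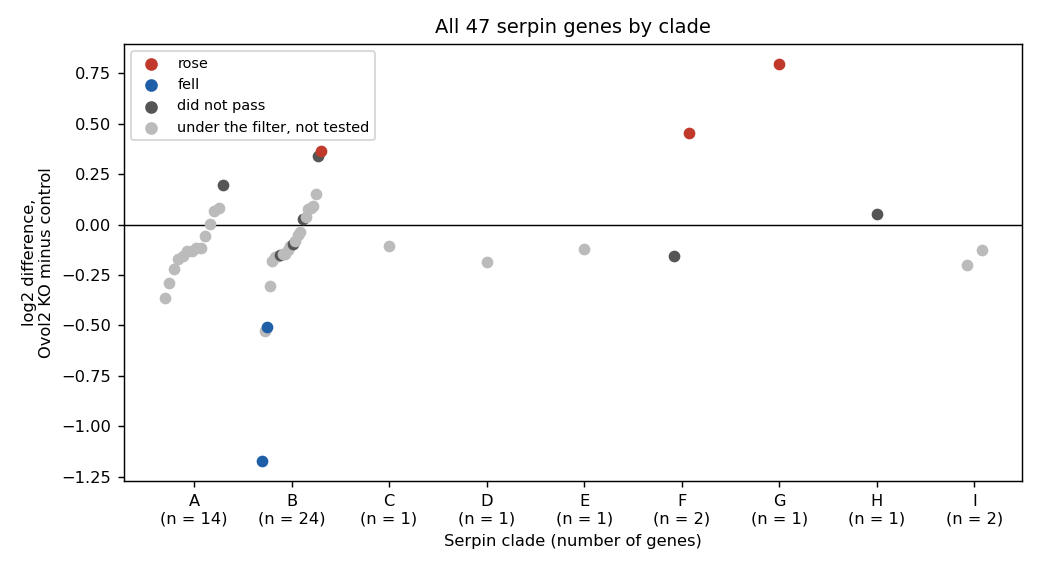
Log2 differences, KO minus control, of all 47 serpin genes by clade, coloured by call, with light grey for the 35 genes under the filter. The genes that fell are in clade B and those that rose are in clades B, F and G.

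The members of clades C, D, E and I were dim. Serpinc1, the antithrombin gene, differed by -0.10, Serpind1, the heparin cofactor II gene, by -0.19, and Serpine3 by -0.12, all untested. The clade I genes Serpini1, encoding neuroserpin, and Serpini2 differed by -0.13 and -0.20. Over the 35 untested serpins, 27 had a lower and 8 a higher mean in KO pools, with a median log2 difference of -0.12. Dim genes in general lay slightly lower, since 72.1% of the 7975 untested genes had a lower KO mean and their median was -0.083.

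By clade, 1 of 7 tested clade B genes rose, 2 fell and 4 did not pass, with a median log2 difference of -0.099. Over all tested genes 6.29% rose and 4.45% fell. Of the 5 tested genes in other clades, 2 rose, 0 fell and 3 did not pass, with a median of 0.20. At an unadjusted limma p under 0.05, 2 of these 5 were higher and 0 lower, against the same 13.1% and 12.4% of all tested genes. The difference between the clades was not tested, and with 2 arrays per group the smallest two-sided p that an exact permutation test over arrays can give is 0.333.

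**Figure D4:**
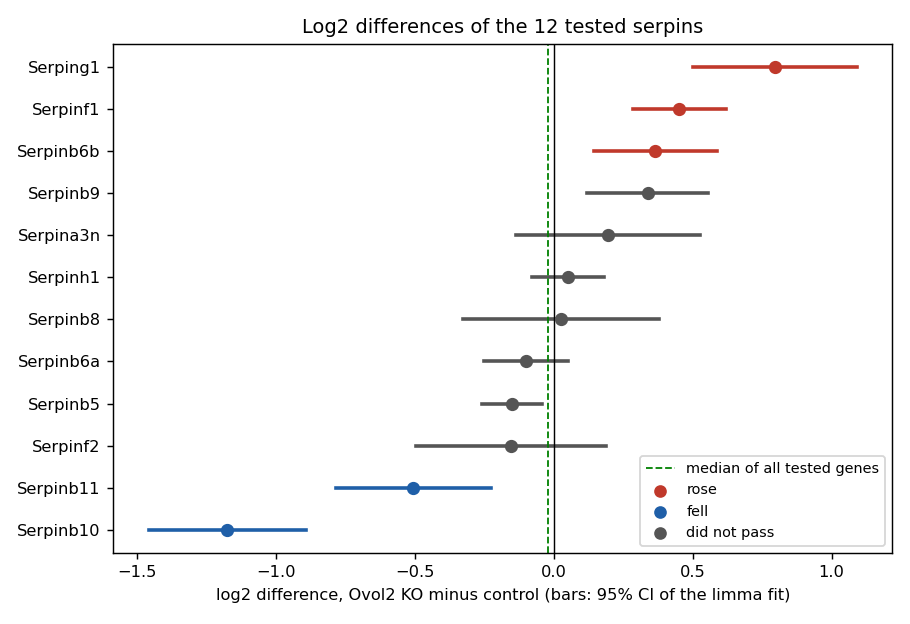
Log2 differences, KO minus control, of the 12 tested serpins with their 95% confidence intervals from the limma fit, coloured by call, and the median of all tested genes as a dashed line. The intervals of Serpinb5 (-0.26 to -0.044) and Serpinb9 (0.12 to 0.56) lie on one side of 0 although neither gene passed after adjustment over all genes.

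Among the proteases that serpins inhibit, 43 of 46 listed genes were on the array and 17 were tested. Of these 3 rose and 1 fell, against 6.29% and 4.45% of all tested genes. The other 13 did not pass, and the median of the tested genes was 0.094. Tmprss2, a membrane serine protease gene, read 11.64 and 11.74 in control pools and 12.33 and 12.49 in KO pools and rose by 0.72 ± 0.064. Htra1, a secreted serine protease gene, rose by 0.67 ± 0.088, and C1s1 fell as given above. Proc, the gene of the protein C zymogen, differed by 0.36 ± 0.12 and did not pass. Ctsl, the cathepsin L gene, named after its value was seen, rose by 0.34 ± 0.059. Ctsk, the cathepsin K gene, named after its value was seen, had the largest difference on the list but lay under the filter. It read 6.90 and 7.41 in control pools and 8.51 and 8.53 in KO pools, an untested log2 difference of 1.36. The granzyme genes Gzma, Gzmb and Gzmk, which encode proteases of cytotoxic lymphocytes, also lay under the filter, with untested differences of 0.18, 0.41 and -0.084. So did the neutrophil protease genes Elane, Prtn3 and Ctsg and the mast cell protease genes Cma1, Mcpt4 and Tpsb2. Of the tested genes on the mast cell list, Cpa3 differed by 0.45 ± 0.17 and Kit by 0.085 ± 0.077, and neither passed. Deposited signals of Kit were 1700 and 1944 in control pools, against 224 and 178 for Cpa3. Whether the Kit signal came from mast cells was not tested.

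In the plasminogen system, 2 of 9 tested genes rose and 0 fell, against 6.29% and 4.45% of all tested genes. At an unadjusted limma p under 0.05, 3 were higher and 2 lower, against 13.1% and 12.4% of all tested genes. Plat, the tissue plasminogen activator gene, read 8.98 and 8.72 in control pools and 9.51 and 9.96 in KO pools and rose by 0.88 ± 0.14 (limma, adjusted p = 0.00573). Lrp1, the receptor that clears serpin-protease complexes, rose by 0.58 ± 0.085. Thbd, the thrombomodulin gene, and Vtn, the vitronectin gene, differed by 0.52 ± 0.22 and 0.35 ± 0.17 and did not pass; Thbd passed without control replicate 2 and without KO replicate 1. Plau, the urokinase gene, and its receptor gene Plaur, named for their role with their values known, differed by 0.16 ± 0.089 and -0.20 ± 0.082 and did not pass.

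Of 20 tested protease inhibitors outside the serpin family, 6 rose, 0 fell and 14 did not pass, with a median of 0.053. The shares over all tested genes were 6.29% and 4.45%. At an unadjusted limma p under 0.05, 8 inhibitors were higher and 1 lower, against 13.1% and 12.4% of all tested genes. Reck, a membrane inhibitor of matrix metalloproteases, rose by 0.97 ± 0.12, Slpi, a secreted elastase inhibitor, by 0.85 ± 0.14, and the metalloprotease inhibitor gene Timp3 by 0.51 ± 0.098. Tfpi, which inhibits the tissue factor pathway, differed by 0.50 ± 0.16 and did not pass. The others that rose, named after their values were seen, were Itih5 (0.36), Cst3 (0.31) and Wfdc2 (0.26), and the call of Wfdc2 was lost without control replicate 1, without control replicate 2 and without KO replicate 1.

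Of 17 tested receptors and cell-surface partners of serpins, 5 rose, 3 fell and 9 did not pass, with a median of 0.12. The shares that rose and fell over all tested genes were 6.29% and 4.45%. The heparan sulfate proteoglycan gene Sdc1 fell by 0.65 ± 0.10 and Lrp8, a lipoprotein receptor gene, by 0.60 ± 0.14, while Lrp1 rose as given above and the glypican gene Gpc6 rose by 0.58 ± 0.13. The calls of Lrp8 and Gpc6 were lost without control replicate 1.

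**Figure D5:**
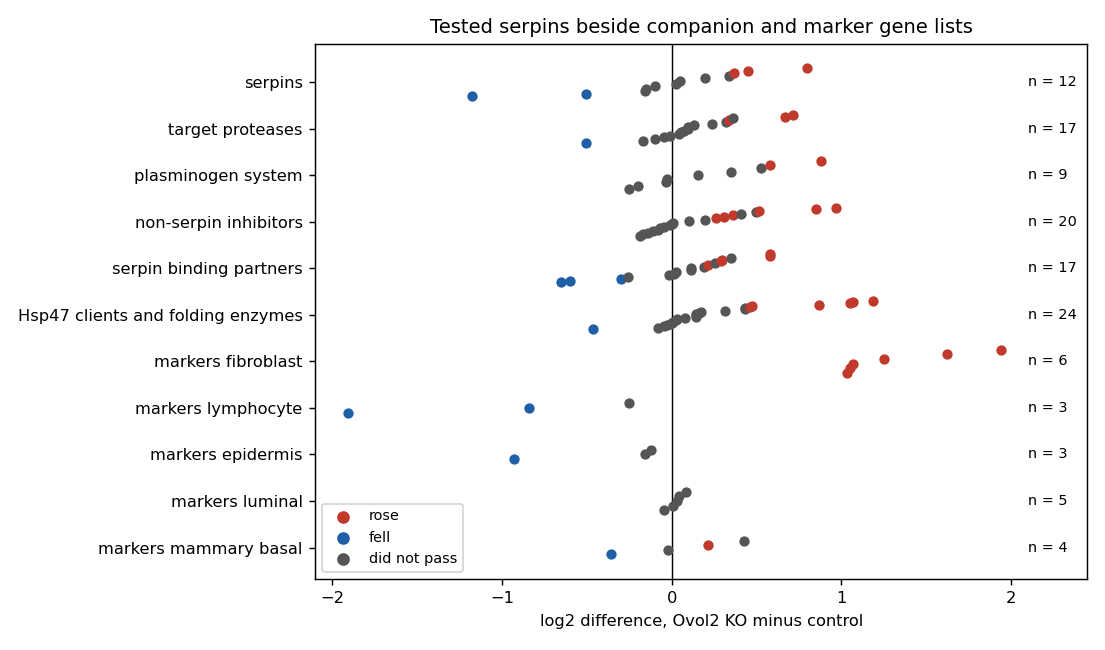
Log2 differences, KO minus control, of the 12 tested serpins (top row) beside the tested genes of 5 companion lists and 5 marker lists, 1 point per gene, coloured by call. All 6 fibroblast markers lie above 1, while Serpinh1 at 0.052 lies near 0 and Serpinb10 at -1.17 lies between the lymphocyte markers Cd79b and Ccr7.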

How the data were processed

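The deposited values are linear signal intensities of 35556 probe sets on each of 4 single-colour Affymetrix whole-transcript arrays. PLIER 2.0 and Affymetrix Expression Console 1.1.1 are the tools listed in the submitters' processing notes; the sources used here do not state settings, background correction or build. With no detection calls, a dim probe set cannot be told from background, so folds of dim genes may be understated. The number of arrays limits the precision.

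Values were taken as log2(signal + 16) and quantile normalized over all probe sets. Names came from the platform annotation, and all 47 serpins matched RefSeq (GRCm38.p6) by Entrez identifier with no symbol changed. The brightest probe set by mean over all arrays stood for its gene. Genes under the 40th percentile of gene means, near a linear signal of 235, were not tested. KO and control arrays were compared in limma 3.58.1 (R 4.3.3) by a two-sided moderated test with a mean-variance trend and Benjamini-Hochberg adjustment over 11963 genes. The fit had 2 residual degrees of freedom and borrowed 7.58. The code was also run on simulated data with independent noise whose variance followed the mean alone. That setting is simpler than these arrays, so the run does not test the calls made here. Promoter windows came from RefSeq.

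The rule named every tested serpin, untested ones that differed by at least 0.5, stood alone in a clade or copied a named gene, and the 4 tested genes with the largest difference in each companion list. The members and lists were chosen with earlier results of these data known. Alternatives changed the normalization, the offset, the filter, the variance prior, the probe set choice, the replicate block and the arrays used.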

Additional observations from a re-analysis of the deposited data

How the results depend on the processing

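The serpin count of 5 became 1 without the variance trend, 3 to 6 when any 1 array was left out, and 4 to 7 under the other alternatives. The count over all genes, 1285, became 753 with median centring, 188 without the trend, 2246 with the replicate block and 476 to 2347 when any 1 array was left out. The causes were not tested, except that 3 arrays leave 1 residual degree of freedom and that without a KO array the fit takes the variance as known. Without control replicate 1 the serpins called were Serpinb10, Serpinf1 and Serping1. Same-numbered arrays of the groups deviated with a correlation of -0.20. This 1 value from 2 arrays per group cannot settle whether the numbers pair the arrays. With the replicate block 7 serpins passed. With the numbers crossed, added after seeing the data, 4 serpins, without Serpinb11, and 1203 genes passed. Among uncalled genes the sign turned, over fits that leave out 1 array, for Serpinb8 (-0.16 to 0.21, with -0.0089 without KO replicate 1), Serpinf2 (-0.31 to 0.0020), Krt5 (-0.22 to 0.18, with 0.039 without control replicate 2), Cd68 (-0.31 to 0.26, with 0.096 without control replicate 2), Epcam (-0.041 to 0.10), Kit (-0.0065 to 0.18) and Plin1 (-0.17 to 0.0053, with 0.00046 without control replicate 1). It also turned for Krt8 (-0.013) and Cd68 (0.041) in the deposited values, and for Krt8 (-0.061) and Epcam (-0.020) with median centring. No called gene named in the text turned sign in these alternatives. The uncalled collagen genes Col5a1, Col4a1, Col4a2 and Col2a1 were not followed through the alternatives, so turns of their signs are not listed. Dim signal limited 35 of the 47 serpins to a description.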
